A study of Mus musculus with 9 samples.

Results

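Cytochrome c oxidase is complex IV of the mitochondrial respiratory chain, the enzyme that passes electrons to oxygen. The 9 genes examined here encode its subunits IV, VIa, VIIa and VIII, which come in alternative forms, and one relative of subunit VIIa. They were chosen by symbol, as the genes Cox4i1, Cox4i2, Cox6a1, Cox6a2, Cox7a1, Cox7a2, Cox7a2l, Cox8a and Cox8b, and all 9 were present among the 13795 genes of the deposited table. Each heart or muscle form was set against its widely expressed partner, and Cox4i1 against Cox4i2.

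RNA sequencing was analysed in heart tissue of C57BL/6 mice, in 4 samples given vehicle and 5 given oxaliplatin at 10 mg/kg. Oxaliplatin is a platinum drug used against cancer, and per the series' design text hearts were taken after 8 weeks and sequenced only where the RNA integrity number exceeded 8. The labels give no sex, age, route or dosing schedule, and nothing in them says whether samples came from separate litters or days, so p-values measure only the spread between these samples. The deposited values are normalized counts, which are read counts scaled between samples, and the depth per sample was estimated at between 28.5 M and 36.2 M reads.

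The catalytic core of the enzyme is made in mitochondria, and the nuclear genome adds small subunits that surround it. In adult heart and skeletal muscle, subunits VIa, VIIa and VIII are supplied mostly by Cox6a2, Cox7a1 and Cox8b, the muscle forms, whereas other tissues use Cox6a1, Cox7a2 and Cox8a, called liver forms by tradition although heart makes them too. The muscle forms come on around birth as heart muscle matures. Cox4i1 is the common form of subunit IV, and Cox4i2 is a form known from lung, from cells wrapped around small vessels (pericytes) and from low oxygen.

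The upstream sequences are shown because the muscle and liver forms are distinct genes, and where both start regions were found they differed in base composition. RefSeq start regions on GRCm38.p6 were matched by symbol for 6 of the 9 genes, all but Cox4i1, Cox4i2 and Cox6a2. The stretch from 250 to 31 bases before the start was read. The pairs of subunits VIIa and VIII are printed, followed by the liver form of subunit VIa, 5′ to 3′ on the strand of the gene, with CG dinucleotides (CpG) in capitals.
Cox7a1 (muscle; chr7:30183921-30184140, plus strand): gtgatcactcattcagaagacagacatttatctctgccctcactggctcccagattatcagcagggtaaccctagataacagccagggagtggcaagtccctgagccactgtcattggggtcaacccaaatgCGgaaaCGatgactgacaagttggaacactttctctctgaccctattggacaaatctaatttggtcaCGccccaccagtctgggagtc
Cox7a2 (liver; chr9:79759884-79760103, minus strand): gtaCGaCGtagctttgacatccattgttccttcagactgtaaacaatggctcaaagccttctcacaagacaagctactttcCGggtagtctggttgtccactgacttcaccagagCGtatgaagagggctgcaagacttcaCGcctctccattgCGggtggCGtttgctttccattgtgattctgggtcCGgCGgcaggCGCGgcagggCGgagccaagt
Cox8b (muscle; chr7:140900477-140900696, minus strand): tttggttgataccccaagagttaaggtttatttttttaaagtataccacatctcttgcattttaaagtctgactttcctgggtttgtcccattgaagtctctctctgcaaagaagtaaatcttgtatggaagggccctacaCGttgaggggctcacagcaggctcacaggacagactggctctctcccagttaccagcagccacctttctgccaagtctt
Cox8a (liver; chr19:7217647-7217866, minus strand): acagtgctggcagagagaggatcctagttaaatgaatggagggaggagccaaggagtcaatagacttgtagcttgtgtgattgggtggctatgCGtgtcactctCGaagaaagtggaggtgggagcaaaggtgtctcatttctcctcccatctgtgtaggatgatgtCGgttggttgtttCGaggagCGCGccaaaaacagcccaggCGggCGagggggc
Cox6a1 (liver; chr5:115348989-115349208, minus strand): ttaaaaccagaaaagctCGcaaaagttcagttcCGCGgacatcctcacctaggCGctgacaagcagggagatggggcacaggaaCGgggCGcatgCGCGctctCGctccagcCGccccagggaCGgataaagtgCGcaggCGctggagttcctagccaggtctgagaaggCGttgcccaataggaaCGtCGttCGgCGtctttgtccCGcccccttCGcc
The muscle forms Cox7a1 and Cox8b held 3 and 1 CpG, against 12 in Cox7a2, 8 in Cox8a and 20 in Cox6a1. For the muscle form Cox6a2 there was no window. The median over all 32851 start windows of this length was 5 CpG. The Cox7a2 window held 1 match to CCGGAA, the core bound by ETS factors, searched on both strands and found in 9.47% of all windows. That of Cox6a1 held 1 match to the palindromic core site of NRF1, a regulator of respiratory genes, found in 0.554% of all windows. The E-box CANNTG matched once each in Cox7a1, Cox8a and Cox7a2l, and in 62.1% of all windows. The half-site AAGGTCA of estrogen-related receptors (3.67% of windows), the MEF2 site (2.83%) and TATAAA (9.95%) matched in none of the 6 windows read.

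The muscle forms dominated their pairs in vehicle hearts. Levels were compared per kilobase, using the length of the principal transcript in GENCODE M21, since no source used here names the authors' annotation. Per kilobase Cox6a2 made up 92.1% ± 0.765 of the subunit VIa pair (SD, n = 4), Cox8b 88.9% ± 1.43 of the subunit VIII pair and Cox7a1 74.2% ± 0.490 of the subunit VIIa pair. Cox4i1 made up 99.4% ± 0.0662 of its pair. Thus the liver form of subunit VIIa, at 25.8% of its pair, was the liver form nearest in level to its muscle partner.

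Across the genes, vehicle levels per kilobase ran from 164059 ± 17433 normalized counts for Cox6a2, through 129815 ± 15288 for Cox4i1, 75901 ± 14969 for Cox7a1 and 75350 ± 16553 for Cox8b, to 26305 ± 4967 for Cox7a2 (SD, n = 4). Below these came Cox6a1 at 13924 ± 1252, Cox7a2l at 9382 ± 1073, Cox8a at 9201 ± 1233 and Cox4i2 at 777 ± 66.4. The neighbours Cox7a1 and Cox8b, and likewise Cox7a2l and Cox8a, lay within each other's spread.

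The balance within the pairs shifted away from the muscle form after oxaliplatin for subunits VIa and VIIa, and away from Cox4i1 for subunit IV. Of the single genes only Cox4i2 passed the gene test, with about 1.95 times its vehicle level. In limma, fitted on log2(normalized count + 1) over 13788 genes with Benjamini-Hochberg adjustment, 1 of the 9 genes passed at an adjusted p under 0.05, against 14.3% of all genes tested. The groups did not fully separate for any of the 9 genes, against 14.9% of all genes (8.99% higher and 5.93% lower in oxaliplatin). An unadjusted p under 0.05 was found for 3 of the 9, against 28.8% of all genes. Of the 9 log2 fold changes 7 were negative, as were 52.3% over all genes, and their median was -0.28, against -0.02 over all genes.

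**Figure D1:**
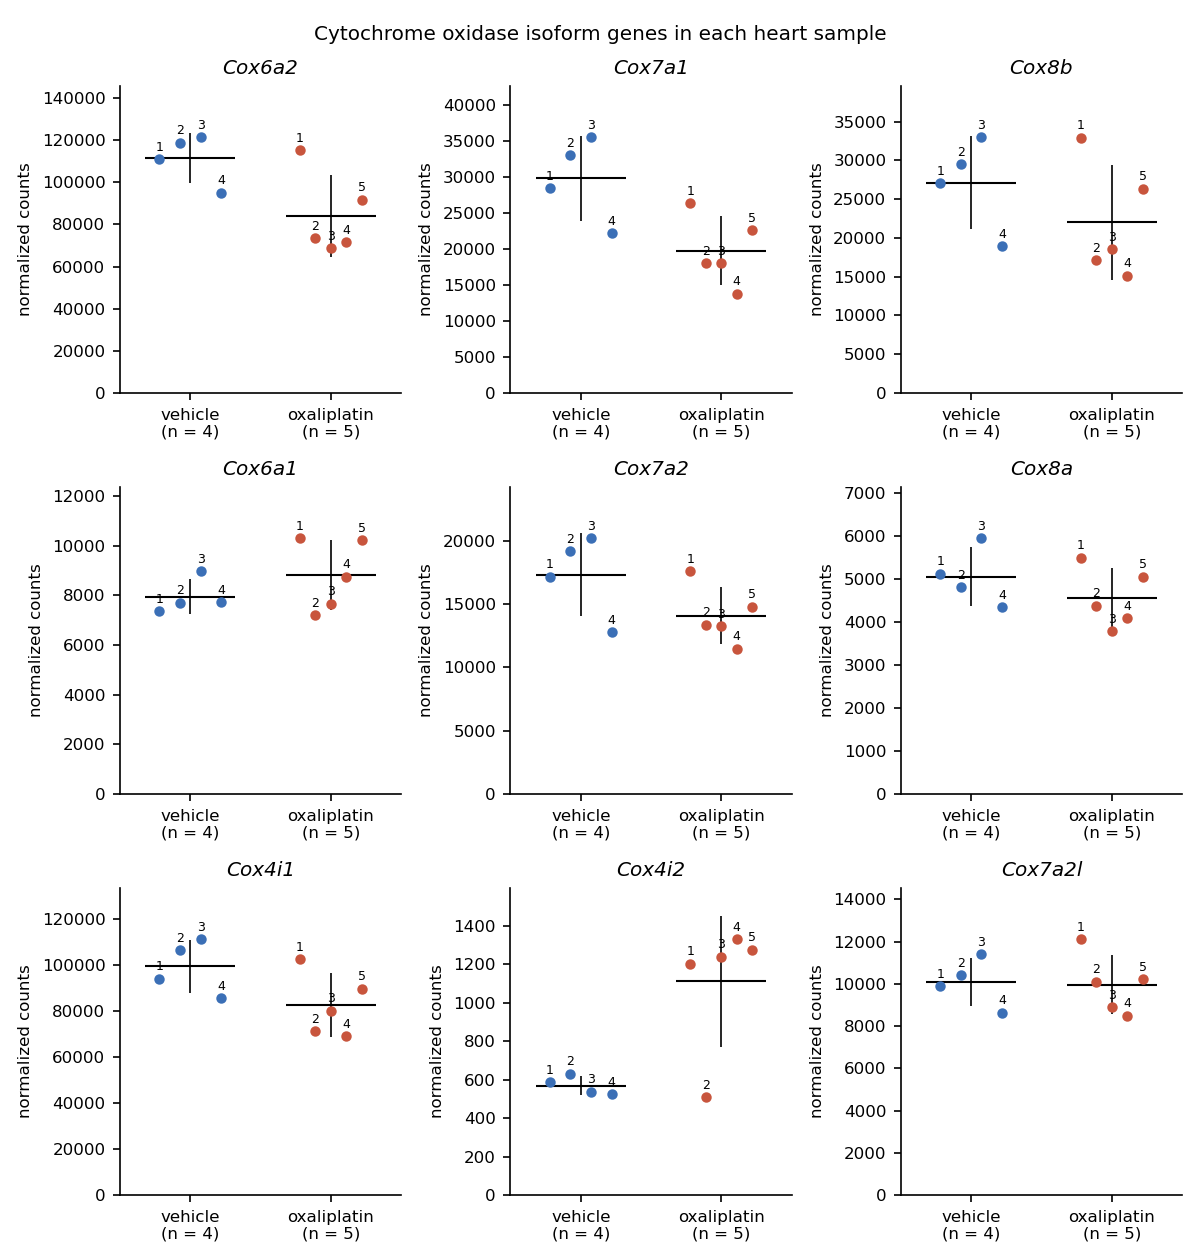
Normalized counts (vertical axes, from 0) of the 9 isoform genes in vehicle (blue) and oxaliplatin (red) samples; numbers are replicate numbers, horizontal lines means and vertical lines SD. Cox4i2 lay at 1203 to 1331 normalized counts in 4 oxaliplatin samples and at 508 in oxaliplatin 2, while for each of the other 8 genes oxaliplatin 1 lay above the lowest vehicle sample.

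Cox6a2, the muscle form of subunit VIa, lies on chromosome 7 from 128205435 to 128206387 in GRCm38. It had 111004, 118824, 121360 and 95053 normalized counts in vehicle samples 1 to 4. In oxaliplatin samples 1 to 5 it had 115101, 73468, 68760, 71701 and 91706. Of the oxaliplatin samples 4 lay below all vehicle samples and oxaliplatin 1 lay among them, so the groups overlapped. The log2 fold change was -0.43 (SE, standard error, 0.17, limma adjusted p = 0.110).

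Its liver partner Cox6a1 had 7364, 7715, 8992 and 7729 normalized counts in vehicle samples 1 to 4. In oxaliplatin samples 1 to 5 it had 10310, 7213, 7668, 8752 and 10216. The groups overlapped, with oxaliplatin 1 and 5 above all vehicle samples, and the log2 fold change was 0.14 (SE 0.13, limma adjusted p = 0.527). Of the stretches of 50 bases in its transcript 12.3% occur in the transcript of 1 other annotated gene, so a part of its reads cannot be placed with certainty, and no such stretch was shared with Cox6a2.

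Taken as a ratio in each sample, where the scale of the sample cancels, the subunit VIa pair separated the groups. Cox6a2 over Cox6a1 was 15.1, 15.4, 13.5 and 12.3 in vehicle samples 1 to 4 and 11.2, 10.2, 8.97, 8.19 and 8.98 in oxaliplatin samples 1 to 5. Each oxaliplatin sample lay below each vehicle sample. The mean ratio went from 14.1 ± 1.44 (SD, n = 4) to 9.50 ± 1.17 (SD, n = 5), a log2 change of -0.57 with a standard error of 0.11. A two-sided exact permutation test over the 9 samples gave p = 0.0159, the smallest it can give (adjusted p = 0.0212 over the 4 ratios). Per kilobase, Cox6a1 made up 7.86% of the pair in vehicle and 11.2% in oxaliplatin samples.

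Cox7a1, the muscle form of subunit VIIa on chromosome 7 from 30184144 to 30186078, had the lowest log2 fold change of the 9 genes. It had 28460, 33098, 35567 and 22191 normalized counts in vehicle samples 1 to 4. In oxaliplatin samples 1 to 5 it had 26402, 18084, 18046, 13793 and 22638. The groups overlapped because vehicle 4 lay at the level of oxaliplatin 5 and below oxaliplatin 1. The log2 fold change of Cox7a1 was -0.60 (SE 0.19, limma adjusted p = 0.0533), just short of the threshold.

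Its liver partner Cox7a2 had 17165, 19166, 20205 and 12804 normalized counts in vehicle samples and 17592, 13368, 13248, 11487 and 14787 in oxaliplatin samples 1 to 5. Here too vehicle 4 lay among the oxaliplatin samples (log2 fold change -0.29, SE 0.16, limma adjusted p = 0.253). The ratio of Cox7a1 over Cox7a2 was much steadier than either gene, at 1.66, 1.73, 1.76 and 1.73 in vehicle samples 1 to 4. It was 1.501, 1.35, 1.36, 1.201 and 1.53 in oxaliplatin samples 1 to 5, again with no overlap. The ratio fell by 19.5%, from 1.72 ± 0.0435 to 1.39 ± 0.132 (SD, n = 4 and n = 5; log2 change -0.31, standard error 0.07; exact permutation p = 0.0159, adjusted p = 0.0212 over the 4 ratios). Vehicle 4, low in both genes, did not stand apart in their ratio.

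**Figure D2:**
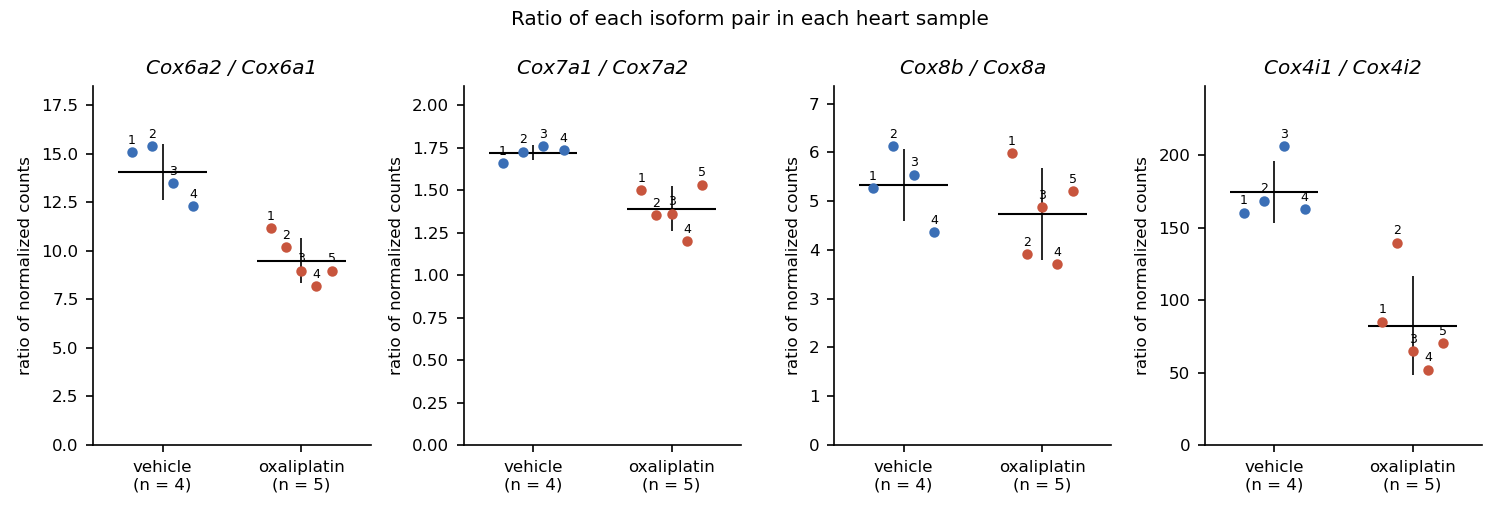
Ratio of normalized counts (vertical axes, from 0) of each isoform pair in vehicle (blue) and oxaliplatin (red) samples; numbers are replicate numbers, horizontal lines means and vertical lines SD. Cox6a2/Cox6a1, Cox7a1/Cox7a2 and Cox4i1/Cox4i2 do not overlap between groups, and Cox8b/Cox8a does.

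The subunit VIII pair showed no such separation. Cox8b, the muscle form, had 27019, 29514, 32993 and 18978 normalized counts in vehicle samples and 32926, 17126, 18513, 15129 and 26354 in oxaliplatin samples 1 to 5 (log2 fold change -0.33, SE 0.23, limma adjusted p = 0.372). Cox8a, the liver form, had 5132, 4811, 5955 and 4345 in vehicle samples and 5504, 4381, 3796, 4086 and 5062 in oxaliplatin samples (log2 fold change -0.15, SE 0.14, limma adjusted p = 0.494). For both genes the groups overlapped. Cox8b over Cox8a was 5.26, 6.13, 5.54 and 4.37 in vehicle samples 1 to 4, and 5.98, 3.91, 4.88, 3.70 and 5.21 in oxaliplatin samples 1 to 5. The log2 change of this ratio was -0.18 with a standard error of 0.17 (exact permutation p = 0.317, adjusted p = 0.317 over the 4 ratios). A shift of this pair as large as that of Cox7a1 over Cox7a2 lay within one standard error of the measured change, so the data do not show that the pairs differ.

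For subunit IV the gene that passed was the minor form. Cox4i2, on chromosome 2 from 152754173 to 152765037, had 586, 631, 538 and 524 normalized counts in vehicle samples 1 to 4. In oxaliplatin samples 1 to 5 it had 1203, 508, 1239, 1331 and 1276. Samples 1, 3, 4 and 5 of the oxaliplatin group thus lay near 2 times the vehicle level, and oxaliplatin 2 lay below every vehicle sample. Cox4i2 rose by 0.89 on the log2 scale (SE 0.25, limma adjusted p = 0.0394), from 570 ± 48.6 to 1112 ± 341 (SD, n = 4 and n = 5). Without oxaliplatin 2 its log2 fold change was 1.15 (limma adjusted p = 2.40e-05), whereas the call was lost without any 1 of the other 8 samples (adjusted p from 0.0732 without oxaliplatin 1 to 0.104 without vehicle 3) and without trend and robust moderation (0.0625).

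Cox4i1, the common form of subunit IV, had 93989, 106520, 111174 and 85551 normalized counts in vehicle samples and 102548, 71065, 80071, 69086 and 89628 in oxaliplatin samples 1 to 5. The groups overlapped (log2 fold change -0.28, SE 0.15, limma adjusted p = 0.256). Cox4i1 over Cox4i2 was 160, 169, 206 and 163 in vehicle samples 1 to 4 and 85.2, 139.6, 64.5, 51.9 and 70.2 in oxaliplatin samples 1 to 5, without overlap. The ratio fell from 174 ± 21.5 to 82.3 ± 34.2 (SD, n = 4 and n = 5; log2 change -1.16, standard error 0.26; exact permutation p = 0.0159, adjusted p = 0.0212 over the 4 ratios). Oxaliplatin 2 was below the vehicle samples in this ratio through its low Cox4i1, not through Cox4i2. Even so, Cox4i2 stayed the minor form, at 0.5997% of the pair per kilobase in vehicle and 1.395% in oxaliplatin samples.

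Cox7a2l, the relative of subunit VIIa, had nearly equal means in the groups. It ran from 8638 to 11409 normalized counts in vehicle samples and from 8500 to 12119 in oxaliplatin samples, with a median of 10112 in the latter (log2 fold change -0.02, SE 0.13, limma adjusted p = 0.936). Of its transcript 19.8% of the stretches of 50 bases occur in the transcript of 1 other annotated gene. The standard error leaves changes of about 0.26 on the log2 scale in either direction within 2 standard errors.

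With quantile normalization, which forces all samples onto one distribution, the 3 ratios that passed had adjusted p = 0.0635 each, and the log2 change of Cox6a2 over Cox6a1 was -0.31. Hearts also differed in atrial tissue: vehicle 1, oxaliplatin 2 and oxaliplatin 4 had the highest scores for atrial markers such as Myl7 and Sln, and without these 3 samples the changes were -0.50, -0.25 and -1.29 for subunits VIa, VIIa and IV, each at the smallest p such a test can give (exact permutation p = 0.100). Without the 4 samples with an atrial score above 1, which adds oxaliplatin 3 and was chosen after seeing the data, the log2 fold changes of Cox6a2, Cox7a1 and Cox4i1 were -0.11, -0.28 and -0.067, and that of Cox4i2 was 1.14 (limma adjusted p = 0.781, 0.461, 0.873 and 7.48e-04).

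The rest of the enzyme gave a background of small negative log2 fold changes. Of 8 measured other nuclear subunits none passed in limma, against 14.3% of all genes. An unadjusted p under 0.05 was found for 0 of the 8, against 28.8% of all genes. Their median was -0.25 and 7 of 8 were negative, against -0.02 and 52.3% over all genes. Cox6c (-0.30) and Ndufa4 (-0.31), an accessory subunit, had the smallest p (limma adjusted p = 0.237 and 0.242). The mitochondrially encoded subunits mt-Co1, mt-Co2 and mt-Co3, which form the catalytic core, had log2 fold changes of -0.23, -0.40 and -0.35 (limma adjusted p = 0.384, 0.107 and 0.289). Their reads can be shared with nuclear copies. The log2 fold changes of Cox6a2 and Cox7a1 lay below all of those in these 2 lists, and that of Cox4i2 lay above all of them. Cox6a2 (-0.43, SE 0.17) lay below mt-Co2 (-0.40, SE 0.16) by less than either standard error, so these 2 were not told apart.

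Of 25 measured assembly factors, which insert copper and heme and guide the subunits together, 1 fell and 24 did not pass, with a median of -0.18 and 24 negative log2 fold changes. Over all genes 5.03% fell and 52.3% had negative log2 fold changes. The 1 that fell was Lrpprc, which stabilises mitochondrial messenger RNAs, among them those of the core subunits. Lrpprc had 1267, 1368, 1499 and 1978 normalized counts in vehicle samples 1 to 4 and 899, 1013, 972, 992 and 1124 in oxaliplatin samples 1 to 5. All oxaliplatin samples lay below all vehicle samples, and the log2 fold change was -0.59 (SE 0.13, limma adjusted p = 0.0103). Lrpprc did not pass after rescaling to the total without mitochondrially encoded genes (log2 fold change -0.50, limma adjusted p = 0.0595).

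**Figure D3:**
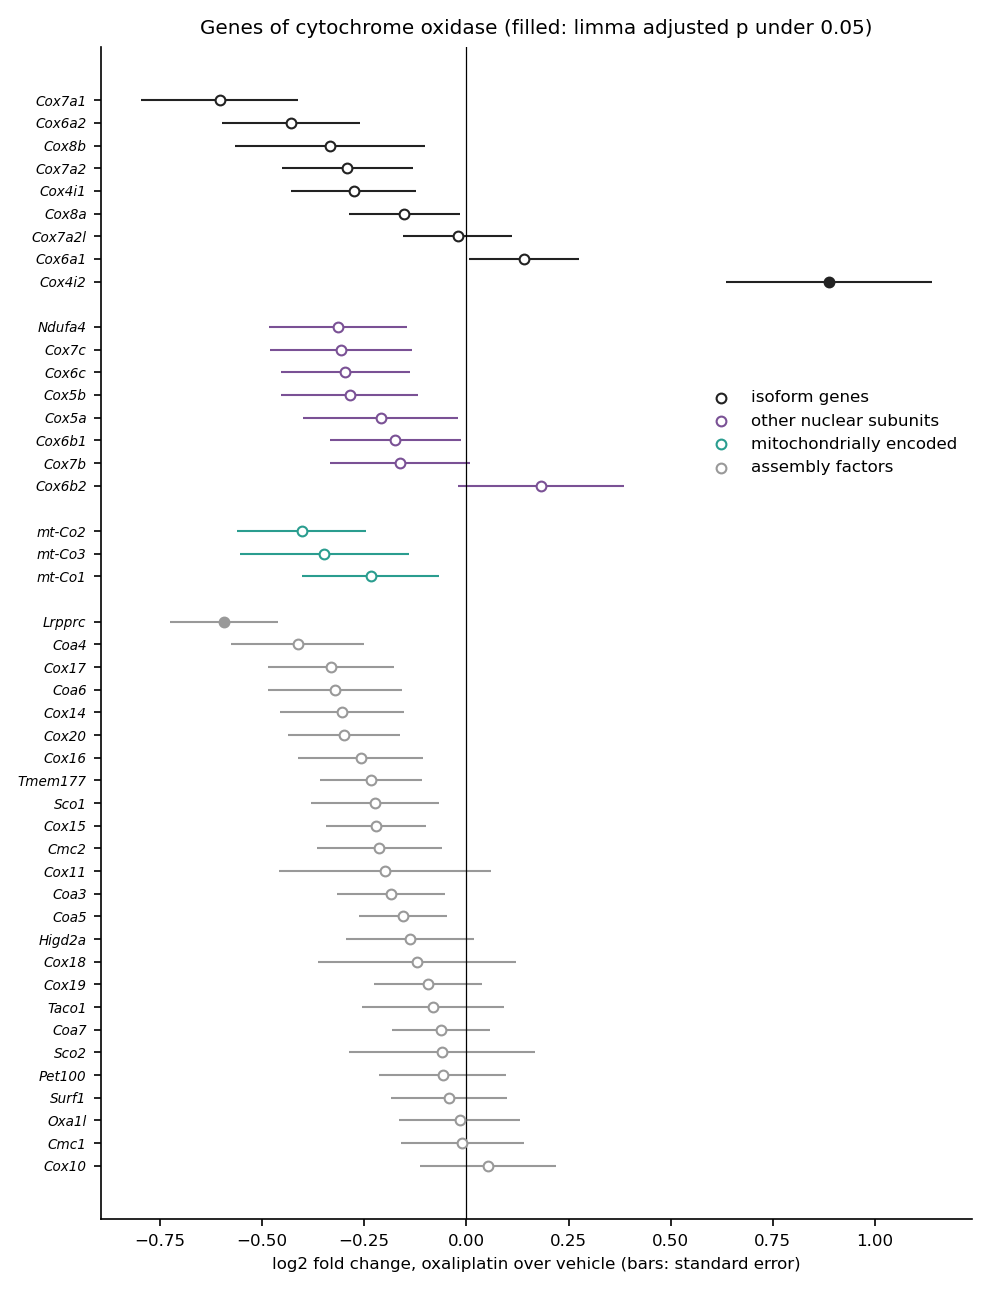
Log2 fold change of oxaliplatin over vehicle (horizontal axis; bars are standard errors) for the isoform genes, other nuclear subunits, mitochondrially encoded subunits and assembly factors; filled points passed in limma. Cox4i2 (0.89) and Lrpprc (-0.59) are filled, and Cox7a1 (-0.60) is the leftmost open point.

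Cox4i2 was examined beside genes linked to low oxygen and to the regulation of cytochrome oxidase. Of 10 such genes 1 rose, 0 fell and 9 did not pass, against 9.23% of all genes that rose. Their log2 fold changes were mixed, 6 positive and 4 negative, with a median of 0.07, against -0.02 over all genes. The riser was Egln3, a prolyl hydroxylase that is itself induced when oxygen is low, with a log2 fold change of 1.29 (SE 0.26, limma adjusted p = 0.00936). Egln3 had 412, 374, 711 and 495 normalized counts in vehicle samples and 1417, 747, 1370, 905 and 1778 in oxaliplatin samples 1 to 5, with oxaliplatin 2 the lowest of its group. Bnip3, a mitophagy receptor and target of the hypoxia-inducible factors, had a log2 fold change of 0.98 and did not pass (limma adjusted p = 0.0550). Nor did Ndufa4l2 (0.83), Hif1a (0.14), Epas1 (-0.01), Higd1a (-0.17) and Lonp1 (-0.55) pass (limma adjusted p = 0.105, 0.437, 0.981, 0.498 and 0.0904). The regulators assigned to the Cox4i2 promoter in cultured cells, Rbpj, Cxxc5 and Chchd2, had log2 fold changes of 0.13, 0.00 and -0.35 and did not pass (limma adjusted p = 0.534, 0.993 and 0.188).

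Several pericyte genes were high in the same oxaliplatin samples as Cox4i2, but not all of the markers were. Of 9 pericyte markers, all measured and none at 0 in any sample, 3 rose, 0 fell and 6 did not pass, against 9.23% of all genes that rose. The risers were Higd1b (log2 fold change 1.402), a mitochondrial protein of pericytes, the growth factor receptor Pdgfrb (0.62) and Vtn (0.59) (limma adjusted p = 0.0114, 0.0198 and 0.0420). Higd1b had 294, 443, 396 and 417 normalized counts in vehicle samples and 1194, 458, 1300, 1142 and 1317 in oxaliplatin samples 1 to 5. Oxaliplatin 2, the sample with low Cox4i2, was the lowest oxaliplatin sample for Higd1b, just above all vehicle samples. Abcc9, a potassium channel subunit of pericytes, had a negative log2 fold change of -0.38 (SE 0.17, limma adjusted p = 0.161). It had 2381, 2609, 3225 and 3320 normalized counts in vehicle samples 1 to 4 and 1778, 2194, 3273, 2036 and 1966 in oxaliplatin samples 1 to 5, so that 4 oxaliplatin samples lay below all vehicle samples. The markers Notch3 and Cspg4 had log2 fold changes of 0.31 and 0.52 and did not pass (limma adjusted p = 0.451 and 0.212). Notch3 ran from 407 to 714 normalized counts in vehicle and from 369 to 833 in oxaliplatin samples. Cspg4 ran from 367 to 769 in vehicle and from 431 to 898 in oxaliplatin samples.

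The summed level of the 9 markers was 13377 to 16416 normalized counts in vehicle samples, 13308 in oxaliplatin 2 and 21041 to 26464 in the other oxaliplatin samples. Cox4i2 as a percent of that sum, a value added after the data were seen and given without a test, was 4.38, 4.12, 3.62 and 3.19 in vehicle samples 1 to 4. It was 5.72, 3.82, 4.68, 5.66 and 5.43 in oxaliplatin samples 1 to 5. The 4 samples with high Cox4i2 thus lay above all vehicle samples in this share too. The sample pattern was not particular to pericyte markers. The summed level of 8 endothelial markers was 15258 to 15804 normalized counts in vehicle samples and 17460 in oxaliplatin 2. It was 23066 to 27301 in the other oxaliplatin samples. In bulk heart tissue, a change in the number of cells of a type and a change in RNA per cell cannot be told apart, and the part of pericytes in the Cox4i2 result was not tested.

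**Figure D4:**
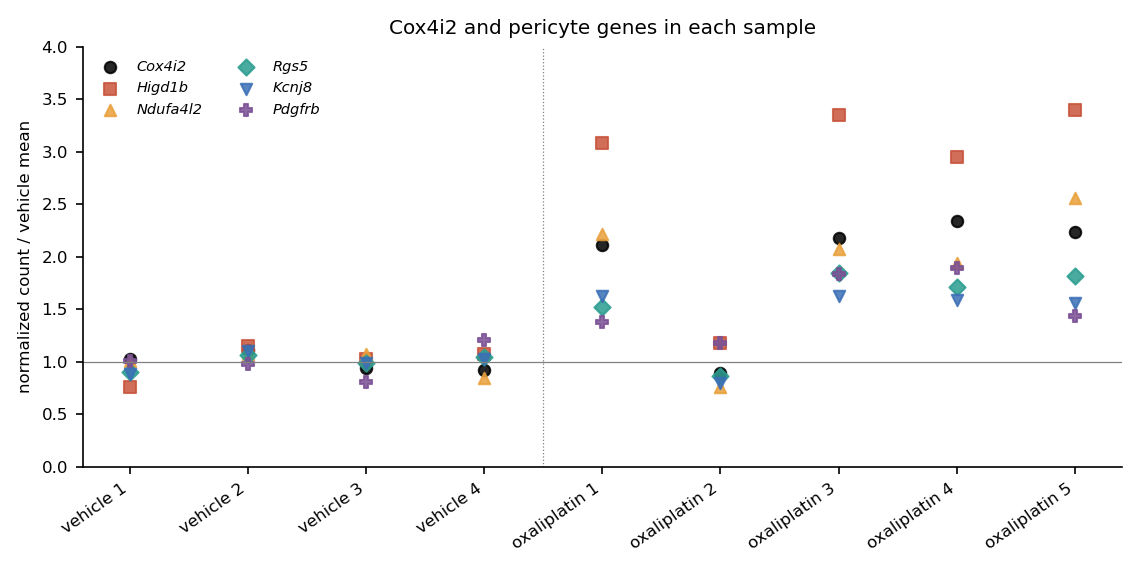
Normalized count divided by the vehicle mean of the gene (vertical axis, from 0) for Cox4i2 and 5 of the 9 pericyte markers, picked after their values were seen, in each sample (horizontal axis); the dotted line parts the groups. For each gene but Pdgfrb and Higd1b, oxaliplatin 2 lies below 1, and the other 4 oxaliplatin samples lie above all vehicle samples for all 6 genes.

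The muscle forms were set beside cardiomyocyte markers in the same way. Of 12 cardiomyocyte markers, all measured and none at 0, 2 fell and 10 did not pass, against 5.03% of all genes that fell. All 12 log2 fold changes were negative, with a median of -0.34, against 52.3% and -0.02 over all genes. The sum of these markers ran from 1709900 to 2117060 normalized counts in vehicle samples and from 1373860 to 1898980 in oxaliplatin samples. As a percent of that sum, again without a test, Cox6a2 was 5.80 ± 0.812 in vehicle and 5.34 ± 0.429 in oxaliplatin samples (SD, n = 4 and n = 5), with overlap. Cox6a1 was 0.411 ± 0.0223 and 0.566 ± 0.0532, from 0.381 to 0.431 in vehicle and from 0.497 to 0.637 in oxaliplatin samples, without overlap. On this scale Cox6a1 separated the groups and Cox6a2 did not.

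The subunit VIIa pair separated the groups in neither form on this scale. Cox7a1 was 1.55 ± 0.306 percent of the cardiomyocyte sum in vehicle and 1.25 ± 0.149 in oxaliplatin samples (SD, n = 4 and n = 5), with overlap. For Cox7a1 the overlap came from vehicle 4 alone, at 1.09. Vehicle 1, 2 and 3 lay at 1.66, 1.75 and 1.68, above every oxaliplatin sample (highest 1.39). Cox7a2 was 0.901 ± 0.182 in vehicle and 0.901 ± 0.0509 in oxaliplatin samples, and vehicle 4 was its lowest sample too, at 0.631. Liver forms are also made by the other cells of the heart: 8 of 8 endothelial and 8 of 8 fibroblast markers had positive log2 fold changes, as had 6577 of all 13788 genes, and 1 in each list rose, against 9.23% of all genes. The endothelial sum ran from 15258 to 15804 normalized counts in vehicle and from 17460 to 27301 in oxaliplatin samples, and the fibroblast sum from 21400 to 31713 and from 27013 to 74723. Their part in the ratios was not tested.

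Cox7a1 and Cox8b are also abundant in brown fat, so its markers were checked. Of 6 tested brown fat markers 2 rose, against 9.23% of all genes, and 6 had positive log2 fold changes. The risers were Fabp4 (0.96), which capillary endothelium also makes, and Ppargc1a (0.45), which heart muscle also makes (limma adjusted p = 0.0180 and 0.0187). The summed level of the list ran from 18610 to 27315 normalized counts in vehicle samples and from 26953 in oxaliplatin 2 to 56354 in oxaliplatin 1. Most of that sum was Fabp4, with means of 17215 in vehicle and 34649 in oxaliplatin samples. Ucp1, which defines brown fat, was at 0 in all vehicle samples and in oxaliplatin 1, 4 and 5, at 1.75 normalized counts in oxaliplatin 3 and at 651 in oxaliplatin 2. Adipoq, also on the list, had 3.58, 540, 70.1, 96.7 and 17.9 normalized counts in oxaliplatin samples 1 to 5. In vehicle samples Adipoq ran from 17.2 to 38.0. The sum was thus lowest among oxaliplatin samples where Ucp1 and Adipoq were highest. Without oxaliplatin 2 the log2 changes of Cox7a1 over Cox7a2 and Cox8b over Cox8a were -0.30 and -0.12, against -0.31 and -0.18 with it. The part of brown fat in these ratios was not tested.

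Other genes with a muscle or heart form and a widely expressed or fetal partner were measured as a comparison, without a test. In 5 of 8 such pairs the ratio was lower in every oxaliplatin sample than in any vehicle sample. Of single genes 5.93% lay lower in this way, and the share over gene pairs in general was not computed. Slc25a4 over Slc25a5, the adenine nucleotide translocases of the inner mitochondrial membrane, went from 18.5 ± 1.81 to 13.3 ± 1.18 (SD, n = 4 and n = 5; log2 change -0.47), near the change of the subunit VIa pair. Ldhb over Ldha went from 4.25 ± 0.0835 to 1.63 ± 0.456 (log2 change -1.42) and Ckm over Ckb from 69.7 ± 13.0 to 31.6 ± 7.72 (log2 change -1.16). Pgam2 over Pgam1 and Eno3 over Eno1 of glycolysis changed by -0.57 and -0.80 on the log2 scale. In Cpt1b over Cpt1a, Myh6 over Myh7 and Tnni3 over Tnni1 the groups overlapped, as they did in Cox8b over Cox8a. Ratios lower in every oxaliplatin sample were thus also found outside cytochrome oxidase.

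**Figure D5:**
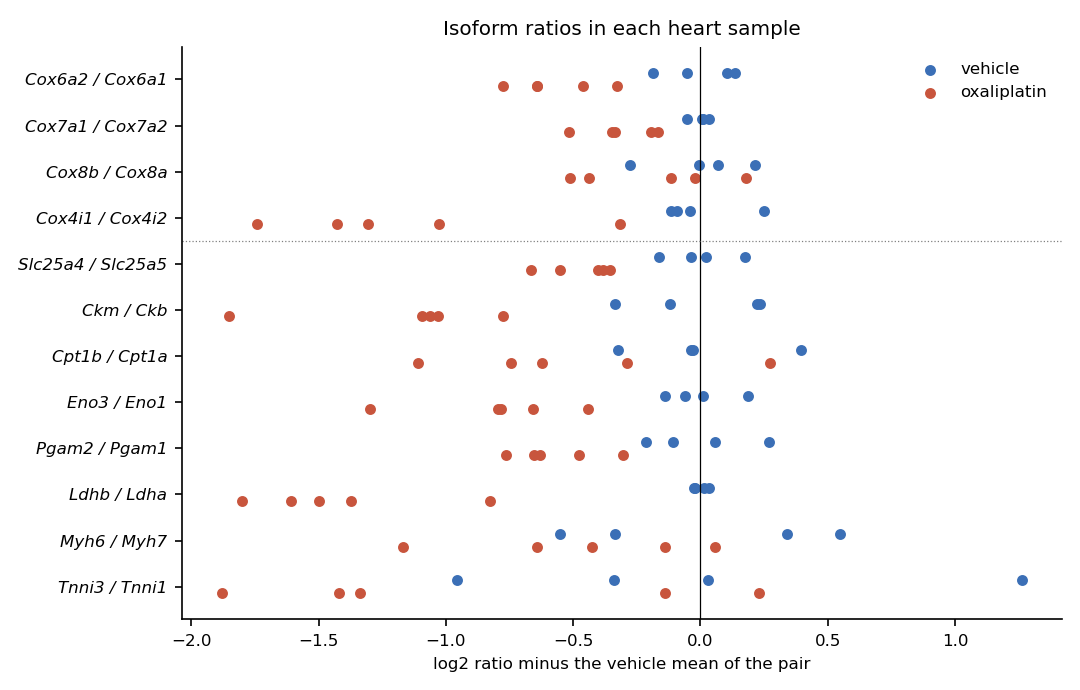
Log2 ratio minus the vehicle mean of the pair (horizontal axis) in vehicle (blue) and oxaliplatin (red) samples, for the 4 cytochrome oxidase pairs (above the dotted line) and 8 other pairs. The 5 oxaliplatin points lie left of all vehicle points for 3 of the 4 and 5 of the 8.

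For Cox4i2 and the 3 muscle forms, the 3 genes with the most similar profile were found by the smallest root-mean-square difference of centred log2 values over the 9 samples. For Cox6a2 these were Fahd2a, Ldhb and Rhd, at 0.057, 0.061 and 0.061 on the log2 scale, where the gene's own spread was 0.31. Those nearest Cox8b were the complex I subunits Ndufs5, Ndufc1 and Ndufa6, at 0.073, 0.084 and 0.084, with an own spread of 0.41. Nearest Cox7a1 lay Pigyl, 1190007I07Rik and the complex I assembly factor Ndufaf8, at 0.079, 0.097 and 0.097, with an own spread of 0.42. For Cox4i2 they were Srd5a1, Serpini1 and Ndufa4l2, at 0.12, 0.12 and 0.15, with an own spread of 0.59. None of these 3 nearest genes of one form was among the 3 of another. This depends on the cut at 3, since Uqcr11 was among the 10 nearest of both Cox7a1 (0.11) and Cox8b (0.093).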

How the data were processed

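The deposited values are a signal: normalized counts, per the file headers, for each gene in each of 9 samples. STAR 2.5.1a, Partek and DESeq2 are named in the submitters' processing notes without role or order; for genome build, annotation, strand setting and shared reads, nothing was found in the labels. Library preparation used a SMARTer kit, per the labels. Low values lay on a step per sample, but only 72.1% to 76.9% of values under 200 estimated reads lay within 0.05 of a whole read, so no count test was run.

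Groups were taken from titles. Genes averaging 10 or more (13788) were put on the scale log2(normalized count + 1) and fitted in limma 3.58.1 (R 4.3.3; trend and robust options on), a scale that understates the change of low genes. All 9 isoform genes passed this filter. Tests were two-sided with Benjamini-Hochberg adjustment at 0.05. Ratios of (normalized count + 1) were tested in Python 3.11.15 by exact permutation and adjusted over the 4 ratios. All isoform genes were named, with the genes that passed in each other list or else its 2 of smallest p. Also named were the 3 nearest genes of Cox4i2 and of each muscle form, and all 8 other pairs. Other genes printed as values were picked after their values were seen. The genes and lists were chosen with earlier results of these data known. Alternatives were pseudocount, filter, scaling, limma settings, replicate block, covariates and left-out samples. On simulated tables of 13788 genes for oxaliplatin against vehicle, limma recovered 64.0% of genes changed 2-fold and 92.8% changed 4-fold. The simulated noise was independent between genes, without differences in tissue content shared by genes of a sample. Smaller changes were not simulated, and all 9 isoform genes changed by less than 2-fold, so these rates do not apply to them directly.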

Additional observations from a re-analysis of the deposited data

Results flagged for a closer look

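In oxaliplatin 2, Cox4i2 (508 normalized counts) lay far below the nearest other oxaliplatin sample (1203), by more than a test for a single outlying sample allows. The same sample stood apart in Higd1b (458 normalized counts, nearest 1142) and in the pericyte potassium channel gene Kcnj8 (1394, nearest 2730). Of 48 groups of samples examined these 3 stood apart, a share near the 1 in 20 or so that chance gives. The 3 genes share the sample, but Higd1b and Kcnj8 were picked after their values were seen, so this sharing is no separate evidence. Oxaliplatin 2 also had the highest atrial marker score, the lowest erythroid score and the only Ucp1 above 2 normalized counts; the part of these in its low Cox4i2 was not tested.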

How the results depend on the processing

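Of the 9 isoform genes, 1 passed in limma. The number was 2 after quantile normalization, 3 with the total without mitochondrially encoded genes, 0 without trend and robust moderation, 6 with array weights and 2 with an atrial covariate, and ran from 0 to 2 when each sample was left out in turn. Over all genes the calls numbered 1966 (1272 higher, 694 lower), and 2132 (1154, 978), 1852 (1464, 388), 1636, 3541 and 2643 in those 5 settings, so calls also rose over all genes with array weights and the covariate. Other subunits went from 0 to 4 with array weights and stayed at 0 in each fit leaving out 1 sample. Assembly factors went from 1 to 3 after quantile normalization, 0 without mitochondrially encoded genes in the total and 8 with array weights, and ran from 1 to 2 with each sample left out.

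The log2 changes of Cox6a2/Cox6a1, Cox7a1/Cox7a2 and Cox4i1/Cox4i2 stayed negative in all settings run. They did not pass after quantile normalization (-0.31, -0.24 and -1.02), nor without the 3 samples of high atrial score (-0.50, -0.25 and -1.29) or, added after seeing the data, without the 4 samples scoring above 1 (-0.45, -0.20 and -1.21), where the exact test has too few samples to reach 0.05. Cox8b/Cox8a changed sign in the last 2 settings (0.011 and 0.076). With each sample left out the changes ran from -0.63 to -0.52, -0.35 to -0.26, -1.38 to -1.02 and, for Cox8b/Cox8a, -0.27 to -0.10.

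The replicate numbers did not pair the samples: deviations of same-numbered samples correlated at -0.27, -0.06, -0.09 and 0.25 across genes. With a replicate block 1413 genes passed in place of 1966, and of the isoform genes Cox7a1 passed and Cox4i2 did not (limma adjusted p = 0.0391 and 0.131); Cox4i1/Cox4i2 had a log2 change of -1.13 and an adjusted p of 0.0584.

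Cox7a2l, near 0, was positive with the total without mitochondrially encoded genes (0.068), the atrial covariate (0.019), without the 3 (0.034) or 4 (0.14) atrial samples, and without vehicle 3, oxaliplatin 3 or oxaliplatin 4; over all fits leaving out 1 sample it ran from -0.095 to 0.040. Without the 4 samples Cox8a (0.080) and Cox8b (0.16) were positive too, and Cox6a2 went from -0.43 to -0.11, Cox7a1 from -0.60 to -0.28, Cox4i1 from -0.28 to -0.067 and Cox7a2 from -0.29 to -0.080, while Cox6a1 went from 0.14 to 0.34. The cause of these differences was not tested.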

Other observations

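Cox6b2, the testis form of subunit VIb, was measured at low levels, from 70.6 to 113 normalized counts in vehicle and from 88.4 to 133 in oxaliplatin samples (log2 fold change 0.18, limma adjusted p = 0.592).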
